A study of Sus scrofa with 12 samples.

Results

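ENSSSCG00000000296 is the Ensembl identifier of a pig gene that had the highest transcript level in nearly every library of porcine oocytes examined here. It is 1 gene of 31908 identifiers listed in each library. It was chosen by its FPKM (fragments scaled by the length of the transcript and by library size), as the gene with the highest value in nearly all of the 12 libraries, so that how high its rank, level and share were is given as a description and without a test. Only their differences between stages, which the choice did not use, were tested. The gene names used here paired 15029 of the identifiers with a symbol and gave none for ENSSSCG00000000296, so it is called by its identifier throughout. Its position, transcript and protein sequence were not analysed here, and no function is given for it.

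The oocytes came from cumulus-oocyte complexes (COCs) aspirated from antral follicles of prepubertal gilts (Sus scrofa), and none of the groups carried a genetic change or a drug treatment. COCs of the 22h and 46h groups were matured in vitro for that time in a medium with epidermal growth factor and gonadotropins. Those of the 0h group were washed in the medium but had no time in this culture. In comparisons with 0h, time and exposure to the culture and its hormones therefore cannot be told apart. The cumulus cells were stripped off in the same manner in all groups. The series text puts the middle time at 24h, whereas the sample labels give 22h, which is used here. Each stage had 4 libraries, each made from a pool of oocytes by SMART-Seq2, in which an oligo-dT primer starts the cDNA at the poly(A) tail. Neither the labels nor the methods tie the replicates to separate animals or cultures, so the p-values measure the spread between these libraries, which may be technical. The labels name the groups by their hours in culture, and oocytes within a pool may have been at different meiotic stages.

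A fully grown oocyte carries a store of maternal mRNA that was transcribed during growth. Transcription is largely silent from the end of growth until the embryonic genome is activated, so the levels of maternal transcripts during meiosis are set mostly by their stability and by the length of their poly(A) tails. Many stored mRNAs are deadenylated and degraded during maturation, a process in which BTG4, an adaptor of the CCR4-NOT deadenylase, takes part, while others are polyadenylated and translated.

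Sequencing depth is unknown, because only FPKM values were used, and counting error could not be given. The FPKM total of a library lay between 697468 and 782309 in the 0h group, between 704433 and 773647 in the 22h group and between 779556 and 802184 in the 46h group. A level of 1 FPKM or more was reached by 6939 to 7895 genes in the 0h libraries, by 6682 to 7135 genes in those of 22h and by 5819 to 6076 genes in those of 46h. All 13 matched oocyte markers of 15 listed had a mean of at least 1 FPKM, and the sum of their FPKM was 18938 to 27693 in the 0h libraries, 23838 to 34905 in those of 22h and 14828 to 17757 in those of 46h. Of 21 cumulus and granulosa cell markers, 18 were matched and 5 had a mean of at least 1 FPKM. Their sum was 56.6 to 102 in the 0h libraries, 67.0 to 100.2 in those of 22h and 128 to 160 in those of 46h, most of it from VCAN, a matrix proteoglycan. The other genes of these 5, KITLG, FST, STAR and SERPINE2, were above 0 in every library. In the limma fit described below, VCAN was called higher at 46h than at 0h (log2 fold change 1.18, adjusted p = 0.0015). In that comparison SERPINE2 was called lower (-0.80, adjusted p = 0.00085), and KITLG, FST and STAR were not called. Of the 18 matched markers, only LHCGR and INHA, the luteinizing hormone receptor and the inhibin alpha subunit, were listed at 0 in every library. The 3 blood markers summed to at most 0.32 FPKM, and HBB was listed at 0 in every library. The part of other cells in the results was not tested.

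The level of ENSSSCG00000000296 was high at all stages. As deposited it did not change past the thresholds between any of them, whereas under median-of-ratios scaling it was called higher at 46h than at both earlier stages. The stage means were 42224 ± 11852 (0h), 41392 ± 11052 (22h) and 50172 ± 1739 (46h) FPKM (SD, n = 4 each). At 0h the level was 33165, 35996, 40284 and 59451 FPKM in replicates 1 to 4. Replicate 4 lay well above the other 3 libraries of its stage. At 22h the level was 46569, 54233, 29888 and 34880 FPKM in replicates 1 to 4. Replicates 3 and 4 were the low pair here, and replicate 3 held the lowest value of all 12 libraries. At 46h the level was 52695, 49087, 49949 and 48956 FPKM in replicates 1 to 4. These 4 libraries lay close together and within the range of the libraries of both earlier stages, so that the groups overlapped in each comparison.

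**Figure D1:**
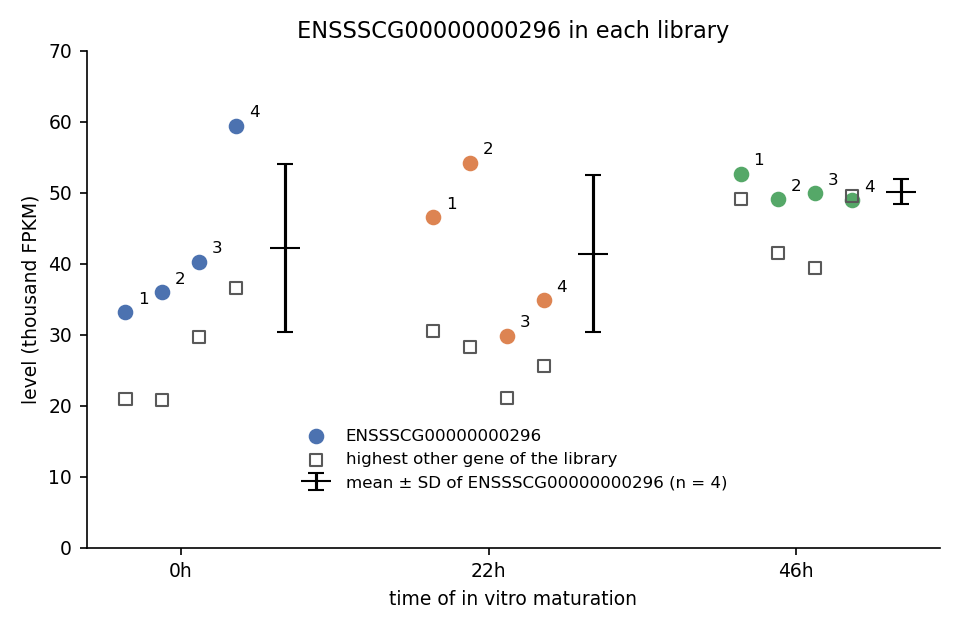
FPKM of ENSSSCG00000000296 in each library (points) by stage, with the stage mean and its SD (n = 4 each). The 46h libraries sit between 48956 and 52695 FPKM, while those of 0h and 22h spread from 29888 to 59451 FPKM and overlap them.

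ENSSSCG00000000296 ranked first in 11 of the 12 libraries, in all 4 at 0h, all 4 at 22h and 3 of 4 at 46h. The exception was 46h replicate 4, where ATP6, a mitochondrially encoded subunit of ATP synthase, stood at 49565 FPKM against 48956 FPKM. When the mitochondrially encoded genes were set aside, ENSSSCG00000000296 ranked first in all 12 libraries. Values just inside and outside the rule are therefore those of 46h, where its ratio to the next gene was 0.988 to 1.27. The lead over the next gene was 1.36-fold to 1.73-fold at 0h and 1.36-fold to 1.92-fold at 22h.

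The gene in second place differed between libraries. At 0h it was UBB, a polyubiquitin gene, in replicates 1 and 3 (20996 and 29657 FPKM), ENSSSCG00000017032 in replicate 2 (20794 FPKM) and ENSSSCG00000050380 in replicate 4 (36545 FPKM). At 22h it was ENSSSCG00000017032 in replicates 1 and 2 (30591 and 28232 FPKM) and ATP6 in replicates 3 and 4 (21151 and 25652 FPKM). At 46h ATP6 was the nearest gene in every library, at 49083, 41468, 39370 and 49565 FPKM. The ratio of ENSSSCG00000000296 to ATP6 averaged 4.996 ± 2.13 at 0h, 1.77 ± 0.624 at 22h and 1.13 ± 0.123 at 46h (SD, n = 4 each).

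The share of total FPKM taken by a gene is the quantity that is comparable between libraries of different FPKM totals, and it is the same in TPM, a unit that gives every library the same total. ENSSSCG00000000296 took 4.76%, 4.98%, 5.36% and 7.60% of total FPKM in replicates 1 to 4 at 0h. It took 6.02%, 7.01%, 4.24% and 4.76% at 22h and 6.57%, 6.30%, 6.30% and 6.12% at 46h. The share at 46h was again the most even of the 3 stages, and it lay within the spread of the other 2. The means were 5.67% ± 1.31 at 0h, 5.51% ± 1.249 at 22h and 6.32% ± 0.187 at 46h (SD, n = 4 each). The difference in mean share between 22h and 0h was -0.164 percentage points (exact two-sided permutation test, p = 0.857, adjusted p = 0.857 over the 3 comparisons). From 22h to 46h the difference was 0.813 points (exact permutation p = 0.314, adjusted p = 0.557), and from 0h to 46h it was 0.649 points (exact permutation p = 0.371, adjusted p = 0.557). With 4 libraries against 4 there are 70 arrangements and the smallest possible p is 0.0286. None of the 3 differences in share was larger than the spread between libraries. Without 0h replicate 4, the mean at 0h was 5.03%, the difference of 22h from 0h became 0.479 points and that of 46h from 0h became 1.29 points. The difference of 46h from 22h was 1.31 points without 22h replicate 2 and 0.391 points without 22h replicate 3.

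**Figure D2:**
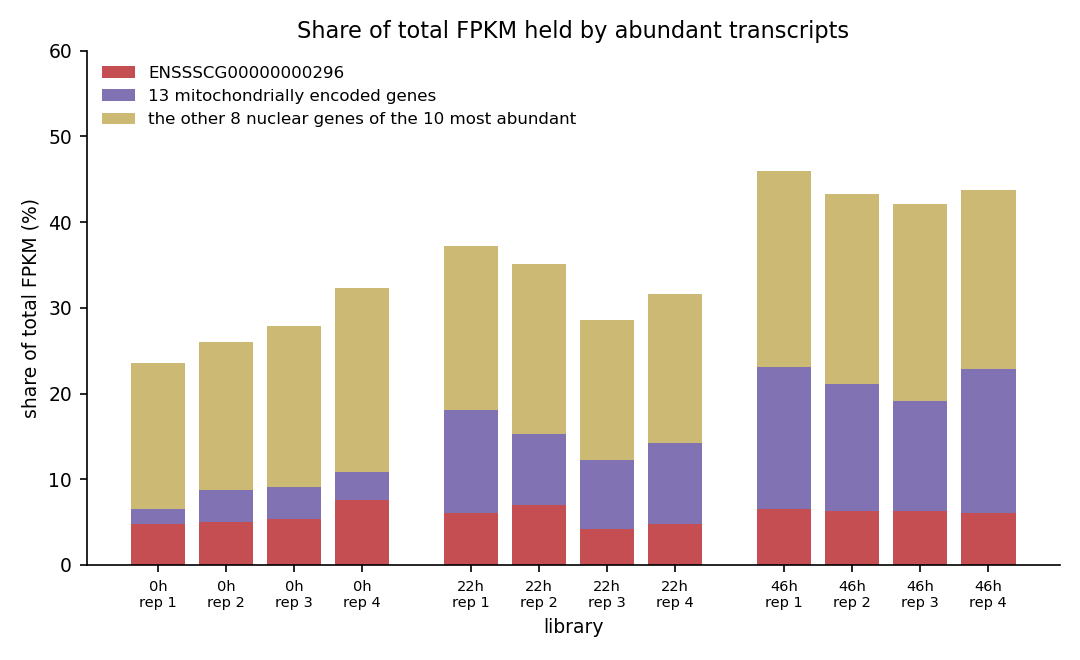
Share of total FPKM in percent in each library (stacked bars) taken by ENSSSCG00000000296, by the 13 mitochondrially encoded genes and by the other nuclear genes among the 10 most abundant. The share of ENSSSCG00000000296 lies between 4.24% and 7.60% in all libraries, and between 6.12% and 6.57% in those of 46h.

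The denominator of this share itself changed with the stage. Mitochondrially encoded proteins have 13 genes, whose part in the total was 1.79% to 3.76% in the 0h libraries, 8.06% to 12.02% in those of 22h and 12.8% to 16.7% in those of 46h. Of total FPKM without these genes, ENSSSCG00000000296 took 5.86% ± 1.36 at 0h, 6.09% ± 1.39 at 22h and 7.46% ± 0.281 at 46h (SD, n = 4 each). Of total FPKM without the other 9 of the 10 most abundant genes, it took 7.11%, 7.03% and 8.77% on average. Without the mitochondrial genes the difference in mean share was 1.37 points at 46h against 22h and 1.60 points at 46h against 0h (exact permutation, adjusted p = 0.171 for both). Without the other 9 genes it was 1.74 and 1.65 points (exact permutation, adjusted p = 0.214 for both). The 10 most abundant genes together took 25.6% ± 3.29 of total FPKM at 0h, 26.9% ± 2.86 at 22h and 34.2% ± 1.01 at 46h, so that this gene accounted for the largest single part of them at each stage. Against the median of the genes with at least 1 FPKM in the same library, its level was on average 5705 times as high at 0h, 5660 times at 22h and 7367 times at 46h.

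To test the change over maturation, log2(FPKM + 1) was fitted with limma over all 12 libraries, and a gene was called at an adjusted p under 0.05 and a fold change over 1.5. Between 0h and 22h the log2 fold change of ENSSSCG00000000296 was -0.03 (95% confidence interval -0.49 to 0.43, limma adjusted p = 0.927). It was not called, whereas 26.7% of the 7013 genes tested were called in this comparison. Between 22h and 46h it was 0.32 (-0.14 to 0.78, adjusted p = 0.240), where 42.4% of all genes tested were called. Between 0h and 46h it was 0.29 (-0.17 to 0.75, adjusted p = 0.261), where 55.9% of all genes tested were called. The standard error was 0.21 in each. In the order of mean levels, 22h, 0h and 46h, neighbouring stages thus did not differ beyond the spread of their libraries, and the intervals leave room for changes of up to 0.78 on the log2 scale in the later comparisons. The comparisons share libraries and are not independent of each other. FPKM is relative to the library, so that a change of this transcript per oocyte and a change in the amount of the other transcripts cannot be told apart.

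The 2 later comparisons depended on how the libraries were scaled. As deposited, the median log2 fold change over all genes tested was -0.00 at 22h against 0h, -0.26 at 46h against 22h and -0.25 at 46h against 0h. Relative to these medians the change of ENSSSCG00000000296 was -0.03, 0.57 and 0.54. Median-of-ratios scaling brings the typical gene, among those above 0 in all libraries, to the same level in each. It presumes that this typical gene did not change, which was not tested. The libraries were divided on average by 1.15 at 0h, 1.10 at 22h and 0.862 at 46h. On this scale the level of ENSSSCG00000000296 was 31241, 35903, 35326 and 42812 in replicates 1 to 4 at 0h. On the same scale it was 41023, 51554, 25658 and 32779 at 22h and 60862, 60319, 54522 and 57369 at 46h. All 4 libraries of 46h then lay above all 8 of the earlier stages. The log2 fold change on this scale was 0.67 at 46h against 22h (95% confidence interval 0.22 to 1.13, limma adjusted p = 0.0149) and 0.69 at 46h against 0h (0.24 to 1.14, adjusted p = 0.0094), and both were called. In these comparisons 45.9% and 62.2% of 6919 genes were called. Quantile normalization gives each rank, the first included, the same value in every library. Under it both log2 fold changes were -0.12 and neither was called.

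**Figure D3:**
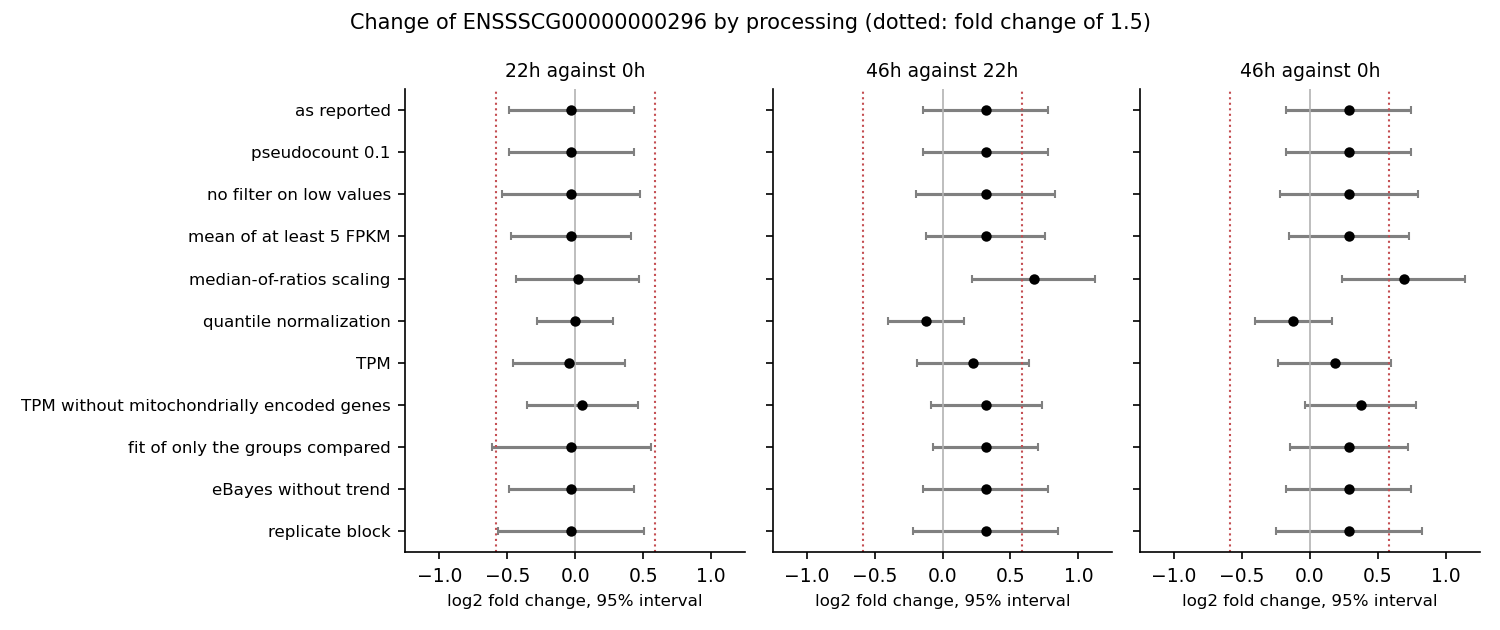
Log2 fold change of ENSSSCG00000000296 with its 95% confidence interval in the 3 comparisons, as deposited and under the other scalings and fits. The intervals of the later comparisons lie above 0 under median-of-ratios scaling (0.67 and 0.69), and the values fall below 0 under quantile normalization (-0.12).

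At 0h, replicate 4 weighed on the result. Without it, the log2 fold change was 0.15 at 22h against 0h (limma adjusted p = 0.542) and 0.46 at 46h against 0h (adjusted p = 0.0362), the latter below the fold change needed for a call.

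The spread of ENSSSCG00000000296 between libraries differed among stages. Its coefficient of variation was 28.1% at 0h, 26.7% at 22h and 3.47% at 46h. Among the 100 most abundant genes, 57 varied less than this gene at 0h and 71 at 22h, but only 3 at 46h. The median coefficient of variation of these 100 genes was 24.1% at 0h, 17.4% at 22h and 11.6% at 46h. No test of the spread was made. Under median-of-ratios scaling the coefficient of variation was 13.2% at 0h, 29.5% at 22h and 5.03% at 46h. Without 0h replicate 4 it was 9.82% at 0h as deposited, and 44 of the 100 genes then varied less, with a median of 10.99%, which is below that of 46h. Without 46h replicate 1 it was 1.09% at 46h. Within 0h the order of the 4 libraries by the level of ENSSSCG00000000296 was the same as their order by total FPKM. The order was the same at 22h except for replicates 1 and 2, and it differed at 46h. As a share of total FPKM the gene still varied by 23.1% at 0h, 22.7% at 22h and 2.95% at 46h.

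**Figure D4:**
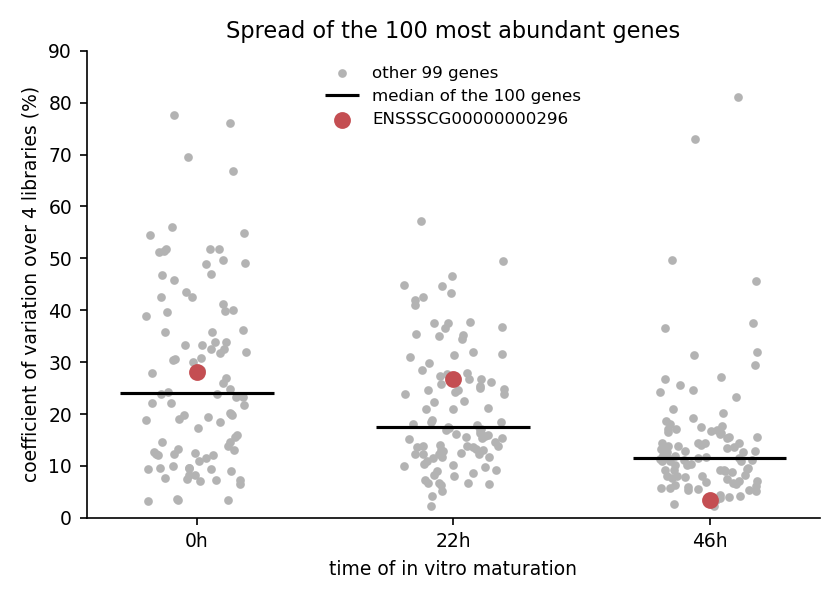
Coefficient of variation in percent over the 4 libraries of a stage for the 100 most abundant genes (points), with ENSSSCG00000000296 marked. It stands at 28.1% at 0h, 26.7% at 22h and 3.47% at 46h, near the bottom of the points at 46h.

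The other 9 of the 10 most abundant genes averaged from 11907 FPKM (FTL) to 26075 FPKM (ATP6) over the 12 libraries, against 44596 FPKM for ENSSSCG00000000296. In the comparison of 22h with 0h, 2 of these 9 were called higher and 1 lower, where 7.84% and 18.9% of all genes tested were called. At 46h against 22h, 3 were called higher and 0 lower (9.87% and 32.6% of all genes), and this count was 6 and 0 under median-of-ratios scaling (20.3% and 25.6% of all genes) and 0 and 0 under quantile normalization (28.1% and 19.1%). At 46h against 0h, 4 were called higher and 1 lower (16.8% and 39.1% of all genes). Under median-of-ratios scaling the counts at 46h against 0h were 6 higher and 0 lower, where 29.6% and 32.6% of all genes were called. Under quantile normalization they were 2 higher and 2 lower, where 41.0% and 25.5% of all genes were called. Without 0h replicate 4 they were 5 higher and 1 lower, where 18.8% and 37.6% of all genes were called.

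Of these genes, ATP6 rose the most. Its stage means were 9396 ± 3401 (0h), 23956 ± 4051 (22h) and 44872 ± 5216 (46h) FPKM (SD, n = 4 each). Its log2 fold change from 0h to 46h was 2.33 (SE 0.248, limma adjusted p = 1.5e-06), and the stages did not overlap. The reading frame of ATP6 overlaps that of ATP8, which was listed at 0 in 11 of the 12 libraries, so the division of reads between them is uncertain. Of the 13 mitochondrially encoded genes 12 were called higher at 46h than at 0h, where 16.8% of all genes tested were called higher, with a median log2 fold change of 2.68 against -0.25 for all genes tested.

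A pair of oocyte genes rose as well. OOSP3, a gene of the oocyte-secreted protein family, was called higher at each step as deposited, with stage means of 11073 ± 1609 (0h), 18582 ± 4559 (22h) and 28057 ± 1229 (46h) FPKM, and its log2 fold change was 1.35 over the whole interval (limma adjusted p = 1.1e-05). Its step from 22h to 46h was not called in TPM (0.53) or under quantile normalization (0.14), while the change over the whole interval was called under both. BTG4 had stage means of 15762 ± 1507 (0h), 15605 ± 1416 (22h) and 28330 ± 1878 (46h) FPKM, and at 46h it was 0.86 on the log2 scale higher than at 22h (limma adjusted p = 0.00016). ID3, an inhibitor of helix-loop-helix transcription factors, rose from a mean of 16188 ± 554 (0h) to 26284 ± 2497 (46h) FPKM (log2 fold change 0.69, limma adjusted p = 0.0005). The calls of BTG4 and ID3 were lost under quantile normalization, where their log2 fold changes at 46h against 0h were 0.34 and 0.25.

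FTL, the ferritin light chain that stores iron, was the 1 gene of the 10 that was called lower. Its stage means were 16426 ± 543 (0h), 9869 ± 1074 (22h) and 9425 ± 1051 (46h) FPKM, and the fall came by 22h (log2 fold change -0.74 against 0h, limma adjusted p = 0.0016). Under median-of-ratios scaling the change from 0h to 46h was -0.40 on the log2 scale and was not called.

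The remaining 4 genes, like ENSSSCG00000000296, were called in none of the 3 comparisons as deposited. UBB averaged 25072, 21254 and 23723 FPKM at 0h, 22h and 46h, and FLAD1, which encodes the enzyme that makes flavin adenine dinucleotide, averaged 13601, 11474 and 10810 FPKM. ENSSSCG00000017032 averaged 22068, 24088 and 30489 FPKM, and its change from 0h to 46h, 0.46 on the log2 scale, had an adjusted p of 0.0450 in limma but stayed below the fold change needed. ENSSSCG00000050380 averaged 18059, 15143 and 19410 FPKM. Its 0h libraries held 9917, 10577, 15196 and 36545 FPKM, so that replicate 4 was high here too. Without that library its log2 fold change from 0h to 46h went from 0.32 to 0.73 and was called (limma adjusted p = 0.0073). Under median-of-ratios scaling, ENSSSCG00000017032 was called higher at 46h than at 22h (0.73) and than at 0h (0.87), as was ENSSSCG00000050380 (0.76 and 0.72). Under quantile normalization UBB was called lower from 0h to 46h (-0.68). FLAD1 was called in none of the 3 comparisons under either scaling.

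**Figure D5:**
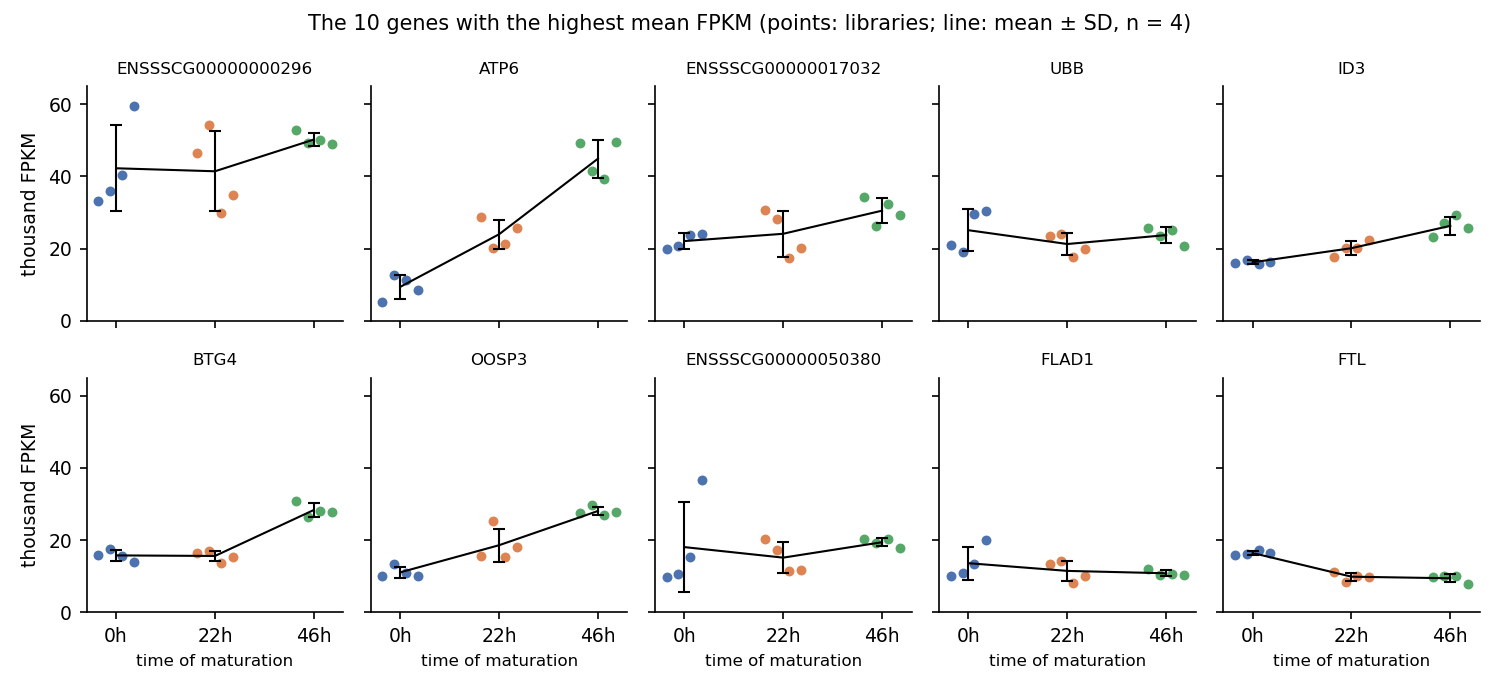
FPKM of the 10 genes with the highest mean level in each library (points) by stage, with the stage mean and its SD (n = 4 each), on a linear axis. ENSSSCG00000000296 lies above the others at 0h and 22h, and ATP6 comes up to it at 46h.

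Among the 100 most abundant genes, 31 were called at 22h against 0h (21 higher, 10 lower), 50 at 46h against 22h (22 higher, 28 lower) and 62 at 46h against 0h (36 higher, 26 lower). These shares stand beside 26.7%, 42.4% and 55.9% of all genes tested. The balance depended on the scaling: under median-of-ratios scaling 42 of the 100 were called higher and 22 lower at 46h against 22h, where 20.3% and 25.6% of all genes were called. At 46h against 0h the counts on that scale were 51 higher and 21 lower (29.6% and 32.6% of all genes). Under quantile normalization 19 of the 100 were called higher and 26 lower at 46h against 22h (28.1% and 19.1% of all genes). At 46h against 0h that normalization gave 33 higher and 27 lower (41.0% and 25.5% of all genes). The median log2 fold change of the 100 genes was 0.29, 0.18 and 0.30 in the 3 comparisons, and that of ENSSSCG00000000296 was -0.03, 0.32 and 0.29.

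The level of ENSSSCG00000000296 was also set beside a hand-written list of 38 transcripts of the maternal store, of which 32 were matched and 31 tested. Not all of them were abundant here. ASTL, NLRP5 and TUBB averaged 2.44, 3.34 and 3.94 FPKM over the 12 libraries, and ACTB, at 0.324 FPKM, was the matched member below the filter. At 22h against 0h, 5 were called higher and 7 lower, where 7.84% and 18.9% of all genes tested were called. At 46h against 22h, 2 were called higher and 19 lower (9.87% and 32.6% of all genes), and at 46h against 0h, 6 were called higher and 18 lower (16.8% and 39.1% of all genes). The median log2 fold changes were 0.15, -1.22 and -1.20, against -0.00, -0.26 and -0.25 for all genes tested. Under median-of-ratios scaling the list held 7 genes called higher and 17 called lower at 46h against 0h (29.6% and 32.6% of all genes), and without 0h replicate 4 it held 4 and 20 (18.8% and 37.6% of all genes).

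Of those called lower at 46h against 0h, ZP3, a zona pellucida glycoprotein, had a mean of 2967 ± 1188 FPKM in the 0h libraries and 95.5 ± 69.7 in those of 46h (log2 fold change -5.07, limma adjusted p = 2e-07). GDF9, a growth factor through which the oocyte signals to granulosa cells, had means of 984 ± 548 (0h) and 37.8 ± 3.73 (46h) FPKM (-4.42, adjusted p = 2.7e-06). BMP15, a related growth factor of the oocyte, was called higher at 22h than at 0h (0.95) and lower at 46h than at 22h (-1.22), and from 0h to 46h it was not called (-0.27, adjusted p = 0.469). ZAR1, which binds maternal mRNA, had means of 140 ± 60.6 (0h) and 0.703 ± 0.312 (46h) FPKM (-6.30, adjusted p = 1e-09). CCNB2, a cyclin of the M phase, had a log2 fold change of -3.98 over the same interval. The 6 that rose at 46h against 0h were OOSP3, BTG4, KPNA7, WEE2, CCNB1 and CDC20. Of these, CCNB1, the other main M-phase cyclin, had means of 615 ± 293 (0h) and 1193 ± 99.2 (46h) FPKM (1.11, adjusted p = 0.0124). WEE2, an oocyte kinase that inhibits CDK1, had a log2 fold change of 1.56 (adjusted p = 0.0406).

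To describe which genes varied with ENSSSCG00000000296, the Pearson r of log2(FPKM + 1) over the 12 libraries was taken for each of the other 7012 genes tested. The points share libraries, FPKM totals and stages, and r is given without a p. The median r was -0.08, and 10 genes were above 0.9. Among genes with a symbol the 5 highest were METTL15 with 0.957, RPS27L with 0.934, RFESD with 0.925, SNRPE with 0.914 and GTF2H3 with 0.906. METTL15 encodes a methyltransferase of the mitochondrial ribosomal RNA, SNRPE a core protein of the spliceosome and GTF2H3 a subunit of transcription factor IIH.

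Their levels were far below that of ENSSSCG00000000296. METTL15 had 2.72, 3.06, 4 and 6 FPKM in replicates 1 to 4 at 0h, followed by 4.94, 5.99, 3.13 and 3.20 at 22h and 5.84, 5.88, 5.65 and 5.73 at 46h. As in ENSSSCG00000000296, replicate 4 was the highest library at 0h and replicates 3 and 4 were the low pair at 22h. SNRPE, the most abundant of the 5, had 865, 920, 1328 and 3621 FPKM in the 0h libraries, 2670, 2164, 1022 and 1187 in those of 22h, and 2291, 1765, 1855 and 1994 in those of 46h. Replicate 4 was again the highest at 0h, and replicates 3 and 4 were the low pair at 22h. At 46h its lowest library was replicate 2, while that of ENSSSCG00000000296 was replicate 4. Both genes were picked for a high r, so some likeness is built in.

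The choice of these 5 depended on the measure. Under median-of-ratios scaling and by Spearman's rho, 2 of them were still among the 5 most alike. Among genes averaging 5 FPKM or more 3 of them were. That filter itself removed METTL15 (mean 4.68 FPKM) and GTF2H3 (1.86 FPKM), so no more than 3 could stay. By deviations from the stage means 1 of the 5 was still among the 5 most alike. Without the 2 libraries farthest from the median level, 0h replicate 1 and 22h replicate 3, 3 of them were. That setting kept 0h replicate 4, the library with the highest level. METTL15 had r = 0.978 within stages, 0.959 without those 2 libraries and 0.977 under median-of-ratios scaling. Within stages 48 genes were above 0.9, with a highest r of 0.984.

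The 3 lowest values among genes with a symbol were those of SPTLC2 with -0.898, MROH7 with -0.888 and SLC46A2 with -0.882. SPTLC2 encodes a subunit of the first enzyme of sphingolipid synthesis. Under median-of-ratios scaling the 3 values were -0.50, -0.56 and -0.33.

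Within the 10 most abundant genes, ENSSSCG00000050380 had the highest r with ENSSSCG00000000296 over the 12 libraries (0.895), followed by ENSSSCG00000017032 (0.818), UBB (0.713) and FLAD1 (0.699). By deviations from the stage means FLAD1 had 0.978, ENSSSCG00000050380 had 0.887, UBB had 0.797 and ENSSSCG00000017032 had 0.788. The 5 genes called in at least 1 comparison as deposited had lower values within stages, from -0.260 for ID3 to 0.281 for OOSP3.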

How the data were processed

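The authors trimmed the reads with Trim Galore, aligned them by STAR and obtained gene levels from RSEM. The deposited values are FPKM, 1 table per library, with 2 decimals. The authors' own differential test used counts, which were not used here.

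log2(FPKM + 1) of the 7013 genes averaging 1 FPKM or more was fitted with limma 3.58.1 (lmFit, eBayes with an intensity trend) in R 4.3.3, on stage alone over 12 libraries and Benjamini-Hochberg adjustment. Fold changes are on this scale, which understates those of low genes. Shares were compared by an exact two-sided permutation test. Depth could not be read from the low values, so replicate spread is the measure of precision. Tables used Python 3.11.15, pandas 2.3.3, numpy 2.4.6 and scipy 1.17.1, and figures matplotlib 3.10.9. Of 31908 identifiers 14275 were at 0 in every library.

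The gene and the lists were chosen with earlier results of these data known. The genes named are those ranked first in a library, the 10 with the highest mean, the 5 with a symbol most like the gene and the 3 least like it, and members of the maternal, mitochondrial and marker lists. Chromosome neighbours, family members and lists by function were not analysed here, since the gene has no symbol in the names used.

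The fit was tested on simulated data for 46h against 0h with 7013 genes. It called 69 of 100 genes changed by 1 log2 unit, 96 of 100 changed by 2, and 8 of 6813 unchanged genes. Alternatives were a pseudocount of 0.1, no filter or a filter at 5 FPKM, median-of-ratios, quantile and TPM scaling, TPM without mitochondrial genes, fits without trend or of only the groups compared, a replicate block, other denominators and each library left out. The spread under other scalings or with 1 library left out was chosen after seeing the data. So were likeness by deviations from stage means or without 2 libraries, and list counts under other scalings or without 0h replicate 4.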

Additional observations from a re-analysis of the deposited data

Results flagged for a closer look

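Of the 63 groups of 4 libraries examined, 2 held a library far from the others of its stage. SNRPE had 3621 FPKM in 0h replicate 4, while the next library of that stage had 1328 FPKM, a gap of 0.832 of the whole range. GTF2H3 had 3.56 FPKM in the same library, while the next had 1.22 FPKM, a gap of 0.907 of the range. Both gaps passed Dixon's critical value at the 95% level for 4 samples, and chance alone would flag about 1 in 20 groups. ENSSSCG00000000296 was also highest in 0h replicate 4, but its gap did not pass this value. Both genes were picked for their likeness to ENSSSCG00000000296, so they are not independent of it.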

How the results depend on the processing

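The change of ENSSSCG00000000296 stayed uncalled under every alternative except median-of-ratios scaling, where it was 0.67 at 46h against 22h and 0.69 at 46h against 0h. Under quantile normalization both were -0.12, which the method's construction fixes, since it gives each rank the same value in every library. At 22h against 0h the change turned to 0.017 under median-of-ratios scaling and 0.053 for TPM without mitochondrially encoded genes; the cause was not tested. Leaving out 1 library gave -0.17 to 0.15 at 22h against 0h, 0.17 to 0.46 at 46h against 22h and 0.18 to 0.46 at 46h against 0h. The sign at 22h against 0h turned without 0h replicate 4, 22h replicate 3 or 22h replicate 4. The difference in share at 22h against 0h was 0.230 points of total FPKM without mitochondrial genes, and -0.665 to 0.479 points with 1 library left out; it was 0.391 to 1.31 points at 46h against 22h and 0.344 to 1.29 points at 46h against 0h. Genes called at 46h against 0h numbered 3922, and 2546 with a mean of at least 5 FPKM, where fewer genes were tested; leaving out 1 library gave 1557 to 2149, 2758 to 2994 and 3791 to 3931 genes in the 3 comparisons. Correlations of same-numbered libraries ranged from -0.466 to 0.381. At 46h against 22h all 4 were positive (0.0088 to 0.381), and 3 of the 4 libraries of 46h correlated best with their own number, as a hint from the data, but not every one exceeded 0.1, so the numbers were not taken to pair the libraries. With the replicate number as a block the changes were -0.03, 0.32 and 0.29 (limma adjusted p = 0.936, 0.310 and 0.330), and 1801, 2933 and 3894 genes were called. Low genes are limited by the unknown depth.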
